A study of Mus musculus with 18 samples.

Results

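Genes of cholesterol and fatty acid synthesis were followed across 4 groups of sorted mouse T-lineage cells. The set holds 32 genes, chosen by symbol from 43280 genes in the count files, and all 32 passed the filter on low counts that left 13922 genes for testing. It comprises 18 enzymes of the sterol pathway, 5 genes of its transcriptional control and of sterol transfer, 6 genes of fatty acid synthesis and desaturation, and 3 genes of cholesterol efflux and its nuclear receptor. RNA was sequenced from 18 libraries. The iRTE libraries (n = 5) are labelled as CD8+ T cells differentiated from a Pmel induced pluripotent stem cell (iPSC) line, and the design text leaves a 3D thymic culture for them by elimination. The Artificial CD8 libraries (n = 5) are CD8+ T cells from the same kind of iPSC, described as grown on OP9-DL1, a mouse bone marrow stromal line that displays the Notch ligand DL1. The CD4+CD8+ libraries (n = 3) are double-positive cells of the same iPSC source, also grown on OP9-DL1. The splenic CD8 libraries (n = 5) are naive CD8+ T cells taken ex vivo from the spleen of transgenic mice, with pmel in their sample descriptions, and the growth note on OP9-DL1 is nevertheless attached to every sample. No label names the strain, age or sex of an animal or the number of iPSC clones. Nor do the labels tie replicates to separate cultures or mice, so each p-value speaks of the spread among these libraries, which may be technical. Unless stated otherwise, that spread was estimated for each gene over all 18 libraries together, iRTE included, whichever groups were compared. Sorting used CD45, the T-cell receptor, CD4 and CD8, and a dump gate took out cells with natural killer, gamma-delta T-cell and dendritic markers.

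Cholesterol is built from acetyl-CoA through mevalonate, farnesyl diphosphate, squalene and lanosterol, and fatty acids are built from the same precursor by acetyl-CoA carboxylase and fatty acid synthase. SREBP factors, held at the endoplasmic reticulum by INSIG proteins and escorted by SCAP, switch on most of these enzymes when membrane sterol is low, whereas LXR receptors switch on efflux pumps when oxysterols build up. T cells that leave rest and divide are known to draw on this synthesis, and resting naive T cells use little of it.

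Total counts ran from 11132768 to 19305751 per library, so 3 counts correspond to 0.152 to 0.287 CPM (counts scaled to the TMM library size, the unit of every level below). Every group carried T-cell and CD8 markers. Cd4 was 0 in all 5 iRTE libraries, 1.89 to 9.17 CPM in Artificial CD8, 155, 253 and 263 CPM in CD4+CD8+ and at most 0.162 CPM in splenic CD8. The 5 thymocyte markers (Cd4, Rag1, Rag2, Ptcra, Cd24a) summed to 1.63 to 38.5 CPM in iRTE, 596 to 661 CPM in Artificial CD8, 828 to 1129 CPM in CD4+CD8+ and 2.90 to 5.13 CPM in splenic CD8, so the libraries labelled Artificial CD8 kept Rag1 and Rag2 RNA at 136 to 169 and 54.4 to 67.9 CPM. Among iRTE libraries, iRTE 4 stood apart, with 8 proliferation markers (Mki67, Top2a, Ccnb1, Cdk1, Mcm2, Mcm5, Pcna, Tyms) summing to 528 CPM against 1337 to 1431 CPM in iRTE 1, 2, 3 and 5. The same 8 summed to 2436 to 3000 CPM in Artificial CD8, 2444 to 2660 CPM in CD4+CD8+ and 374 to 436 CPM in splenic CD8. Where leaving out iRTE 4 changed a call among the 32 genes, the value without it is given beside the gene.

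Most synthesis genes were higher in each cultured group than in splenic cells. Of 32 genes, 24 had their lowest group mean in splenic CD8, 15 had their highest in Artificial CD8, and 7 each had their highest in iRTE and in CD4+CD8+. Ggps1, Tm7sf2 and Abca1 had their highest mean in splenic CD8. In bulk samples fewer cells that express a gene and less RNA per cell cannot be told apart.

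**Figure D1:**
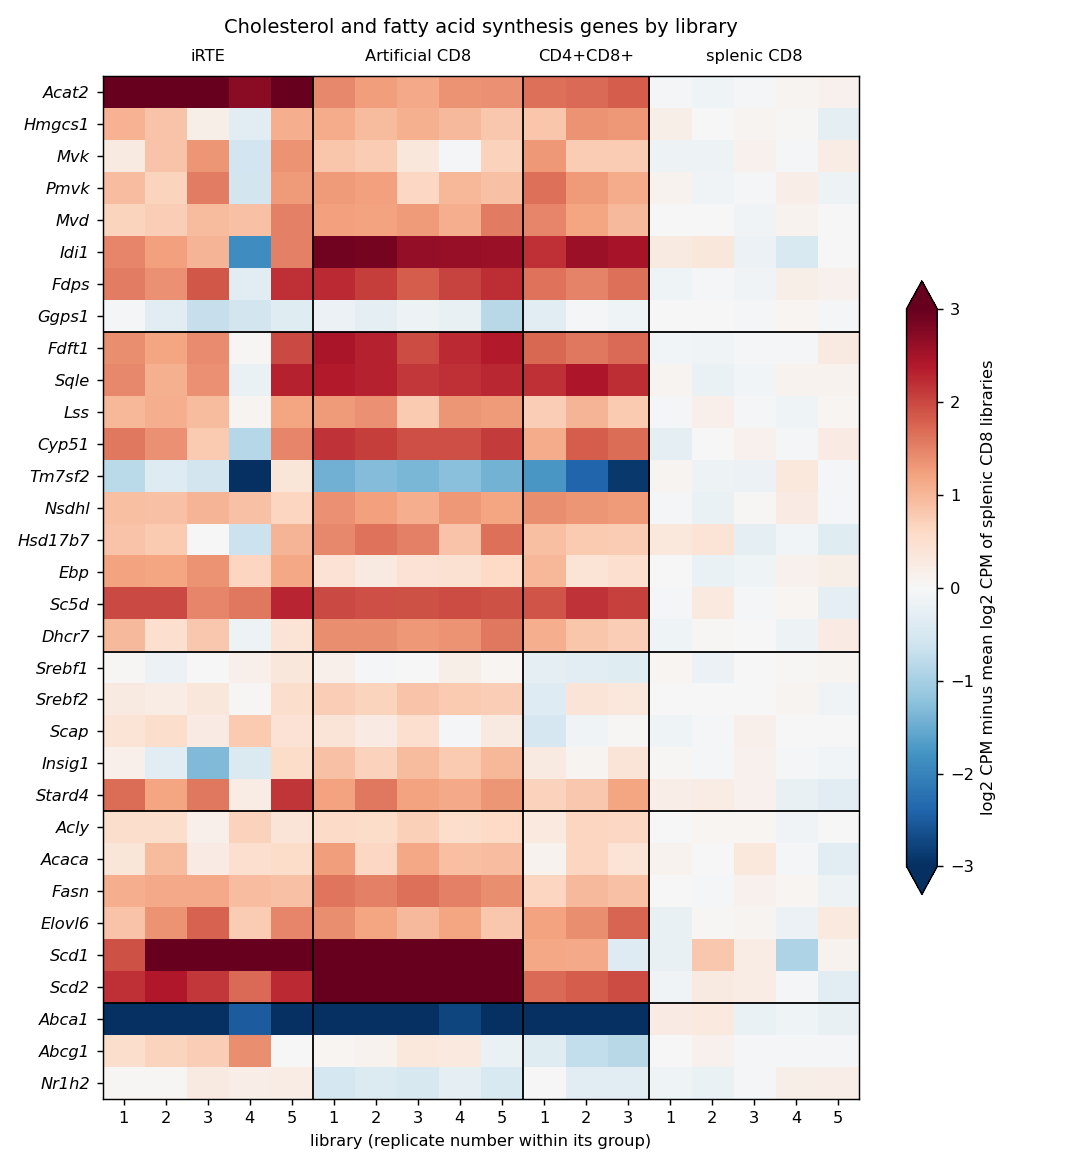
Level of each of the 32 genes (rows, grouped by role and separated by lines) in each of the 18 libraries (columns, replicate number under each), as log2 CPM minus the mean log2 CPM of the 5 splenic CD8 libraries. Red is above the splenic mean and blue below it, and colours stop at 3 log2 units. Most synthesis genes are red in cultured cells, Abca1 is blue in all of them and Tm7sf2 in all but iRTE 5, and iRTE 4 is paler or blue for many sterol enzymes.

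Counts of genes past an adjusted p of 0.05 (edgeR quasi-likelihood test, Benjamini-Hochberg over all 13922 genes) were read against the share of all tested genes called in the same direction. In iRTE against splenic CD8, 24 of 32 genes were higher and 2 lower, where 29.2% of all genes were called higher and 29% lower. The members' median log2 fold change was 0.88, against -0.05 for all genes tested. In Artificial CD8 against splenic CD8, 25 were higher and 4 lower, where 30.3% and 30.2% of all genes were called, and the median was 1.17 against -0.03. In CD4+CD8+ against splenic CD8, 21 were higher and 4 lower, where 28.9% and 27.4% of all genes were called, and the median was 0.88 against -0.03. Of the 18 sterol enzymes 15 were higher and 1 lower in iRTE, 15 and 2 in Artificial CD8, and 16 and 1 in CD4+CD8+. These 3 comparisons share the splenic libraries. Ranges that did not overlap were fewer in iRTE: 11 genes lay wholly above and 2 wholly below splenic CD8, where 18.6% and 22.6% of all genes did. For Artificial CD8 these were 24 and 4 genes, where 29.9% and 31.1% of all genes did. For CD4+CD8+ they were 21 and 5 genes, where 30.7% and 32.7% did.

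Between the cultured groups fewer of the 32 genes passed than against splenic CD8. In iRTE against Artificial CD8, 4 genes were higher and 12 lower, where 20% of all genes were called higher and 18.7% lower, and the median was -0.32 against 0.01 for all genes. In iRTE against CD4+CD8+, 8 were higher and 3 lower, where 11.8% and 12.3% of all genes were called, and the median was -0.06 against 0.02. In Artificial CD8 against CD4+CD8+, 8 were higher and 1 lower, where 6.54% and 8.12% of all genes were called, and the median was 0.39 against 0.00. In iRTE 3 genes lay wholly above and 8 wholly below Artificial CD8, where 11% and 12.6% of all genes did. In iRTE 6 lay wholly above and 2 wholly below CD4+CD8+, where 8.22% and 11.3% did. In Artificial CD8 13 lay wholly above and 1 wholly below CD4+CD8+, where 14.2% and 14.8% did. The counts against CD4+CD8+ moved by more than 1.5 times between settings. With only the libraries of both groups in the fit, 3 were higher and 0 lower for iRTE (edgeR quasi-likelihood test), and 15 higher and 1 lower for Artificial CD8. The share of all genes called was not counted for that fit, so these counts cannot be read against one. Acat2 and Abcg1 passed in every setting run for iRTE against CD4+CD8+, and Srebf2, Fasn, Scd1 and Scd2 did so for Artificial CD8 against CD4+CD8+.

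**Figure D2:**
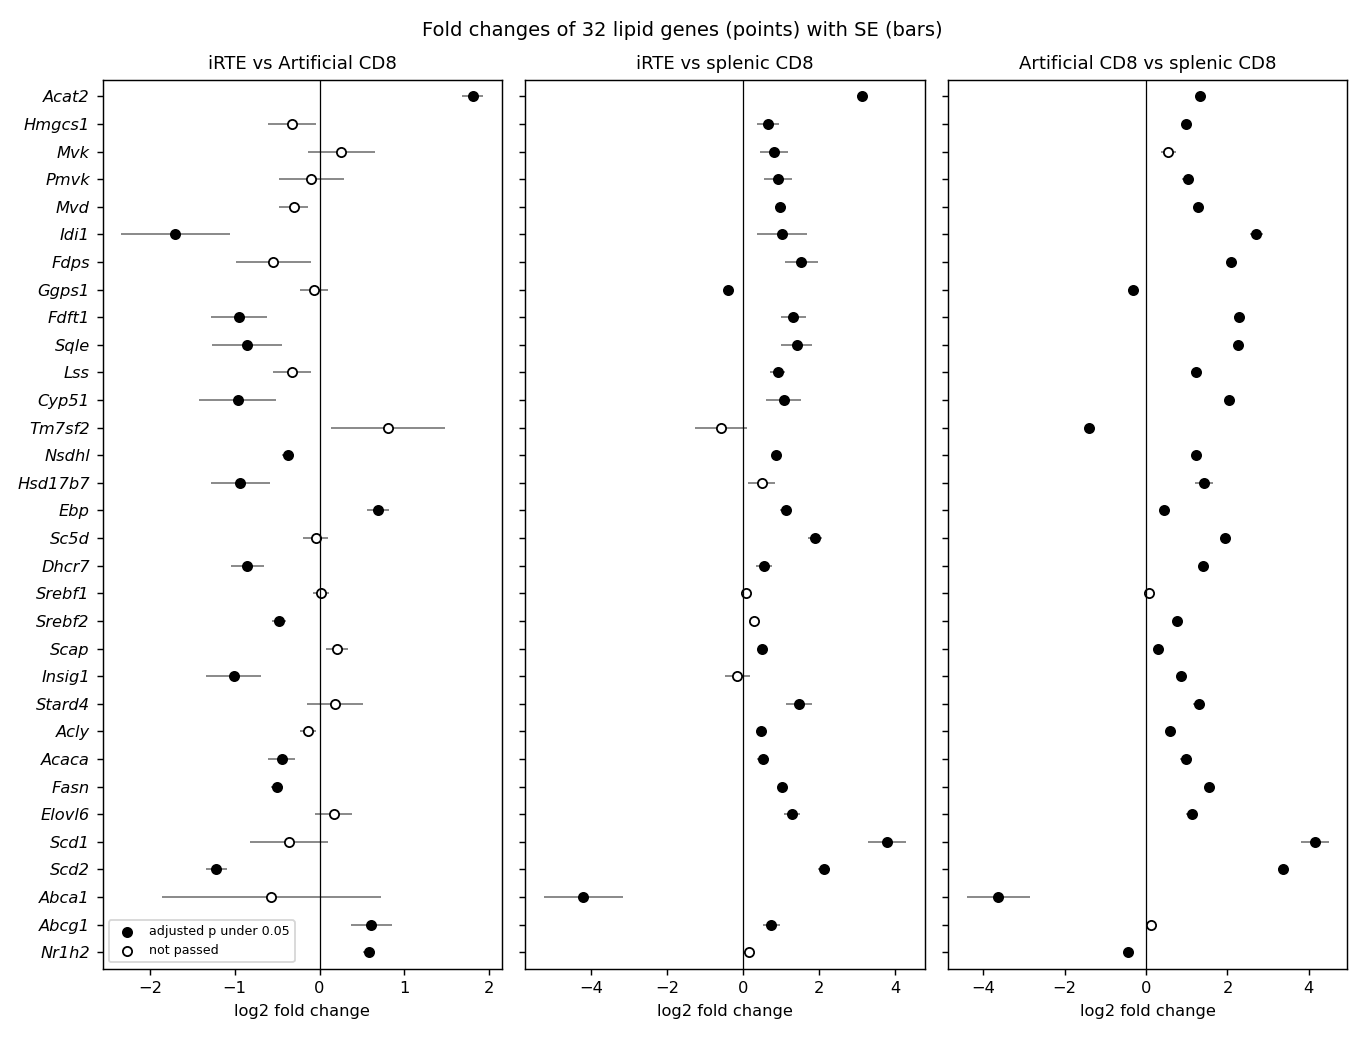
Log2 fold change (x axis) of each of the 32 genes (rows) in 3 comparisons, with the first-named group over the second; bars are the SE from within-group variances of log2 CPM, filled points passed an adjusted p of 0.05 and open points did not. In both comparisons with splenic CD8 most filled points lie right of 0, with Abca1 far to the left, and in iRTE against Artificial CD8 Acat2 is farthest right and Idi1 farthest left.

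Promoters of 4 members are shown as examples: Hmgcs1 and Idi1 of the mevalonate arm, Fasn of fatty acid synthesis, and Abca1, which was highest in splenic cells. Each window runs from 250 bases before to 50 after a RefSeq start site (GRCm38.p6), and capitals mark the sterol regulatory element TCACNCCAC and the NF-Y box CCAAT, each on either strand, as 2 kinds of site known to work together at SREBP targets. Hmgcs1 lies at chr13:119690101-119690400 on the plus strand, Idi1 at chr13:8885356-8885655 on the plus strand, Fasn at chr11:120824498-120824797 on the minus strand and Abca1 at chr4:53159846-53160145 on the minus strand.
Hmgcs1: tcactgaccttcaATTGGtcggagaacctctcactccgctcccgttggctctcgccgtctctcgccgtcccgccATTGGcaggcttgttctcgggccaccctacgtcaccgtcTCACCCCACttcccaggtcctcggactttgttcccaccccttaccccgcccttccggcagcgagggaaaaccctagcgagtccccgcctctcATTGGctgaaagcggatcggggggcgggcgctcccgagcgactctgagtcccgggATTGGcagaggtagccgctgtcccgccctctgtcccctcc
Idi1: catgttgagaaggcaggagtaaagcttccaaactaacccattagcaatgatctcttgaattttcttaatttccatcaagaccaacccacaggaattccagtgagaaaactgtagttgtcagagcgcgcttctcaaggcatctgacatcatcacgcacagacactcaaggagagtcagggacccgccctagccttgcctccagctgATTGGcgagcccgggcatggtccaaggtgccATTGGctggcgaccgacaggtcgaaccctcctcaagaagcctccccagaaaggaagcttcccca
Fasn: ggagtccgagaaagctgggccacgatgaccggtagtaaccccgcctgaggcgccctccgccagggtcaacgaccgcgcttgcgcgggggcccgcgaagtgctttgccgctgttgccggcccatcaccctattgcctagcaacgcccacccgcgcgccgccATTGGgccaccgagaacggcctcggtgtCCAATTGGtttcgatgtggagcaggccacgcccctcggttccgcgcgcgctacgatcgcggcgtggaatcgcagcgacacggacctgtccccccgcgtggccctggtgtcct
Abca1: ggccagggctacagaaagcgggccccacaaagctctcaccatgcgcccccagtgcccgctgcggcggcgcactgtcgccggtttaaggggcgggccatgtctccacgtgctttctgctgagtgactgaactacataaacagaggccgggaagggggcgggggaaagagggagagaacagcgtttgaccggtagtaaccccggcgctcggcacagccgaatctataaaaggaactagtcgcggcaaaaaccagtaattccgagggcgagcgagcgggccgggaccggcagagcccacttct

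RefSeq windows were found for 25 of the 32 genes (31 windows, since some have more than 1 start site). The sterol regulatory element was found in 1 member, Hmgcs1, where its first base lies at -137 from the start site (the start site being 1), and in 1.24% of 32851 windows of all genes. The NF-Y box was found in 20 of 31 member windows (19 genes), against 37.4% of all windows. The Hmgcs1 window holds 4 NF-Y boxes, at -237, -176, -45 and 11, the Idi1 window holds 2, at -45 and -14, and the Fasn window holds 3, of which those at -62 and -59 overlap on opposite strands. The Abca1 window holds none of either motif, nor does that of Acat2, which is not printed. The E-box CACGTG was found in 7 member windows, that of Abca1 among them, against 7.15% of all windows, and the GC box GGGCGG in 22, against 35.7% (both strands, not capitalised). A match is a run of letters and no evidence of binding, and a window without one says only that these letters are not in it.

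The mevalonate arm begins with Acat2, the cytosolic thiolase that joins acetyl-CoA units, and of the 32 genes Acat2 rose most in iRTE over Artificial CD8. It had 397, 470.5, 478, 313 and 443 CPM in iRTE 1 to 5 and 129.7, 115, 107, 123 and 125 CPM in Artificial CD8. The CD4+CD8+ libraries had 150.4, 156 and 170.3 CPM and the splenic CD8 libraries 46.5, 43.8, 46.7, 51.0 and 52.9 CPM. No iRTE library overlapped with any other group, and every cultured library lay above every splenic one. Acat2 was 3.50-fold higher in iRTE than in Artificial CD8 (log2 fold change 1.81 ± 0.12, edgeR adjusted p = 7.70e-10), 2.65-fold higher than in CD4+CD8+ (log2 fold change 1.40 ± 0.12, edgeR adjusted p = 3.89e-07) and 8.72-fold higher than in splenic CD8 (log2 fold change 3.12 ± 0.12, edgeR adjusted p = 2.42e-13). In Artificial CD8 it was lower than in CD4+CD8+ (log2 fold change -0.40 ± 0.07, edgeR adjusted p = 0.0324), a call lost in 8 of the other settings run, with adjusted p of 0.0518 to 0.135 there. Per kilobase of exon Acat2 ranked first of the 32 genes in iRTE, at 165 CPM per kb, and lower in Artificial CD8, at 47.1 CPM per kb. Its near copy Acat3 was listed at 0 to 0.796 CPM in all libraries, so few reads were counted for Acat3. Whether reads of Acat3 were counted for Acat2 was not tested.

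Hmgcs1, which makes HMG-CoA, stood at 176, 155, 96.5, 66.9 and 181 CPM in iRTE 1 to 5 and 186, 165, 179, 167 and 149 CPM in Artificial CD8. CD4+CD8+ libraries stood at 153, 217 and 209.9 CPM and splenic CD8 libraries at 97.0, 84.2, 91.1, 87.4 and 69.5 CPM. iRTE 4 lay below all splenic libraries, iRTE 3 within their range, and the other 11 cultured libraries above it. Hmgcs1 was higher than in splenic CD8 in iRTE (log2 fold change 0.65 ± 0.29, edgeR adjusted p = 0.0107), in Artificial CD8 (log2 fold change 0.98 ± 0.10, edgeR adjusted p = 0.000438) and in CD4+CD8+ (log2 fold change 1.17 ± 0.18, edgeR adjusted p = 0.000304). Between cultured groups it did not pass: its log2 fold change was -0.33 ± 0.29 in iRTE against Artificial CD8 (edgeR adjusted p = 0.218), -0.52 ± 0.32 in iRTE against CD4+CD8+ (edgeR adjusted p = 0.115) and -0.19 ± 0.17 in Artificial CD8 against CD4+CD8+ (edgeR adjusted p = 0.64). The iRTE difference from splenic CD8 was lost when iRTE 4 and 5 were the only iRTE libraries (log2 fold change 0.53, edgeR adjusted p = 0.094).

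Idi1, the isomerase that supplies dimethylallyl diphosphate, fell most in iRTE against Artificial CD8. It had 24.8, 21.2, 18.3, 2.37 and 25.8 CPM in iRTE 1 to 5 and 67.0, 66.2, 56.8, 55.7 and 54.6 CPM in Artificial CD8. It was 41.4, 54.1 and 50.01 CPM in CD4+CD8+ and 10.9, 11.4, 7.87, 6.51 and 9.08 CPM in splenic CD8. Every iRTE library lay below every library of the other cultured groups, and iRTE 4 lay below the splenic range while the other 4 lay above it. Idi1 was 3.25-fold lower in iRTE than in Artificial CD8 (log2 fold change -1.70 ± 0.64, edgeR adjusted p = 0.00105) and lower than in CD4+CD8+ (log2 fold change -1.39 ± 0.65, edgeR adjusted p = 0.0155), the second call being lost with only both groups in the fit (adjusted p = 0.142) or without CD4+CD8+ 2 (0.0591). It was 6.56-fold higher in Artificial CD8 than in splenic CD8 (log2 fold change 2.71 ± 0.16, edgeR adjusted p = 5.35e-06) and 5.30-fold higher in CD4+CD8+ (log2 fold change 2.40 ± 0.19, edgeR adjusted p = 6.69e-05). For iRTE against splenic CD8 the log2 fold change was 1.01 ± 0.66 (edgeR adjusted p = 0.0241), a call lost with limma-voom (adjusted p = 0.346), with only both groups in the fit (0.0802) and without iRTE 1 (0.0611), iRTE 5 (0.0586) or splenic CD8 4 (0.0551). Without iRTE 4 it was 1.30 (edgeR adjusted p = 1.60e-06), and with iRTE 4 and 5 alone 0.62 (edgeR adjusted p = 0.311).

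The remaining mevalonate genes were low in iRTE 4 as well, save Mvd and Ggps1. Fdps, which makes farnesyl diphosphate, had 207, 184, 259.8, 57.2 and 324 CPM in iRTE 1 to 5 and 338, 302, 252, 289 and 328 CPM in Artificial CD8. Levels were 222, 200.3 and 222 CPM in CD4+CD8+ and 64.7, 68.1, 66.3, 79.9 and 77.7 CPM in splenic CD8. All cultured libraries except iRTE 4 lay above the splenic range, and Fdps was 2.89-fold higher in iRTE than in splenic CD8 (log2 fold change 1.53 ± 0.44, edgeR adjusted p = 0.000105). The kinases Mvk and Pmvk ran from 6.23 to 23.97 and 7.91 to 33.8 CPM in iRTE, 9.03 to 16.7 and 18.04 to 28.1 CPM in Artificial CD8, 15.9 to 23.2 and 25.2 to 36.5 CPM in CD4+CD8+, and 8.42 to 10.9 and 10.4 to 13.4 CPM in splenic CD8. For both genes iRTE 4 was the lowest of all 18 libraries. The decarboxylase Mvd ran from 61.9 to 112 CPM in iRTE, 83.8 to 116 in Artificial CD8, 76.4 to 107 in CD4+CD8+ and 36.3 to 41.7 in splenic CD8, and each cultured group was higher than splenic CD8 with no overlap.

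Ggps1, whose product is used to prenylate small GTPases, went the other way. It averaged 52.8 ± 8.88 CPM in iRTE, 55.4 ± 9.63 in Artificial CD8, 61.8 ± 5.69 in CD4+CD8+ and 69.2 ± 1.55 in splenic CD8 (SD, n = 5, 5, 3 and 5). It was lower than in splenic CD8 in iRTE (log2 fold change -0.39 ± 0.11, edgeR adjusted p = 0.0155) and in Artificial CD8 (log2 fold change -0.32 ± 0.13, edgeR adjusted p = 0.0398), the second call being lost in 8 other settings, among them without Artificial CD8 5, the lowest library (log2 fold change -0.21, edgeR adjusted p = 0.117). Of 10 further genes that use prenyl groups or long isoprenoids, 2 were higher and 2 lower in iRTE than in splenic CD8. The Rab prenylation subunits Rabggta and Rabggtb were the 2 lower, at 65.3 ± 17.7 and 13.7 ± 3.99 CPM in iRTE against 116 ± 10.48 and 35.4 ± 2.05 CPM in splenic CD8. Dhdds, which makes dolichol precursors, was higher at 53.2 ± 8.66 CPM in iRTE against 31.2 ± 1.53 CPM in splenic CD8, and so was the CAAX protease Zmpste24. In that comparison 29.2% of all genes were higher and 29% lower. In Artificial CD8 against splenic CD8 3 of these 10 were higher and 3 lower, and in CD4+CD8+ 2 were higher and 3 lower. In iRTE against Artificial CD8 2 were higher and 3 lower, in iRTE against CD4+CD8+ 1 and 1, and in Artificial CD8 against CD4+CD8+ 1 and 0. Against splenic CD8 the shares of all genes were 30.3% and 30.2% for Artificial CD8 and 28.9% and 27.4% for CD4+CD8+. They were 20% and 18.7% for iRTE against Artificial CD8, 11.8% and 12.3% for iRTE against CD4+CD8+, and 6.54% and 8.12% for Artificial CD8 against CD4+CD8+.

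From squalene on, Sqle and Fdft1 were high in Artificial CD8, spread widely in iRTE and low in splenic CD8. Sqle, the epoxidase regarded as a rate-limiting step after HMG-CoA reductase, had 79.4, 61.2, 76.0, 25.2 and 146 CPM in iRTE 1 to 5 and 152, 145, 127, 135 and 141 CPM in Artificial CD8. In CD4+CD8+ it had 133, 157 and 136 CPM, and in splenic CD8 30.9, 25.2, 27.4, 31.2 and 31.6 CPM. iRTE 4 was level with the lowest splenic library, iRTE 5 lay within the Artificial CD8 range, and the other 3 iRTE libraries lay between the groups. Against splenic CD8 Sqle was 2.65-fold higher in iRTE (log2 fold change 1.40 ± 0.41, edgeR adjusted p = 0.000255), 4.78-fold in Artificial CD8 (log2 fold change 2.26 ± 0.08, edgeR adjusted p = 1.30e-06) and 4.85-fold in CD4+CD8+ (log2 fold change 2.28 ± 0.10, edgeR adjusted p = 5.00e-06). It was lower in iRTE than in Artificial CD8 (log2 fold change -0.85 ± 0.41, edgeR adjusted p = 0.0169) and than in CD4+CD8+ (log2 fold change -0.87 ± 0.42, edgeR adjusted p = 0.042). The first of these was lost with only both groups in the fit (edgeR adjusted p = 0.062) and with iRTE 4 and 5 alone (0.163), and the second was lost in 9 other settings. In Artificial CD8 against CD4+CD8+ the log2 fold change was -0.02 ± 0.09 (edgeR adjusted p = 0.979).

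Fdft1, squalene synthase, had 54.9, 47.6, 56.4, 21.4 and 82.9 CPM in iRTE 1 to 5 and 115, 104, 81.9, 99.1 and 109 CPM in Artificial CD8. The CD4+CD8+ libraries had 70.0, 63.1 and 68.1 CPM and the splenic CD8 libraries 19.6, 19.4, 20.3, 20.4 and 25.5 CPM. iRTE 4 fell in the splenic range and iRTE 5 just reached the Artificial CD8 range. Fdft1 was 4.84-fold higher in Artificial CD8 than in splenic CD8 (log2 fold change 2.28 ± 0.11, edgeR adjusted p = 1.06e-07). Its exons share 774 bases (18.3% of its exonic length, GRCm38 annotation) with Ctsb on the opposite strand, and Ctsb averaged 352 ± 31.5 CPM in iRTE, 319.9 ± 8.70 in Artificial CD8, 332 ± 6.76 in CD4+CD8+ and 192 ± 14.4 in splenic CD8. The strand setting of the counting is not given in the sources used here, so reads from that stretch cannot be told apart.

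Cyp51, the lanosterol demethylase, had 125, 108, 71.5, 23.0 and 115 CPM in iRTE 1 to 5 and 188, 176, 159, 159 and 179.8 CPM in Artificial CD8. CD4+CD8+ libraries stood at 90.7, 148 and 134 CPM and splenic CD8 libraries at 33.8, 41.1, 45.5, 40.7 and 49.3 CPM. Every iRTE library lay below every Artificial CD8 library, and iRTE 4 was the lowest of all 18. Cyp51 was 1.95-fold lower in iRTE than in Artificial CD8 (log2 fold change -0.96 ± 0.45, edgeR adjusted p = 0.0119). Lss, lanosterol synthase, averaged 65.9 ± 16.6 CPM in iRTE, 82.4 ± 12.4 in Artificial CD8, 63.9 ± 6.89 in CD4+CD8+ and 35.2 ± 2.57 in splenic CD8. Dhcr7, the reductase of the final step to cholesterol, averaged 57.5 ± 16.0 CPM in iRTE, 104 ± 7.51 in Artificial CD8, 72.9 ± 9.54 in CD4+CD8+ and 39.1 ± 4.62 in splenic CD8, and its iRTE and Artificial CD8 ranges did not overlap.

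Sc5d and Ebp stayed above the splenic range in iRTE 4. Sc5d, a sterol desaturase, had 87.7, 87.5, 61.4, 65.9 and 108 CPM in iRTE 1 to 5 and 82.7 to 87.8 CPM in Artificial CD8. It was 81.6 to 98.8 CPM in CD4+CD8+ and 18.2 to 26.8 CPM in splenic CD8. All 13 cultured libraries lay above all splenic ones, and Sc5d was 3.70-fold higher in iRTE (log2 fold change 1.89 ± 0.17, edgeR adjusted p = 3.14e-09) and 4.09-fold higher in CD4+CD8+ (log2 fold change 2.03 ± 0.12, edgeR adjusted p = 4.53e-09). Ebp, a sterol isomerase, had 137, 134, 149.6, 92.3 and 131 CPM in iRTE and 79.2, 71.0, 79.4, 80.8 and 88.6 CPM in Artificial CD8. Levels were 118, 78.2 and 83.9 CPM in CD4+CD8+ and 58.7, 51.1, 53.9, 64.7 and 66.7 CPM in splenic CD8. The lowest iRTE library lay above the highest Artificial CD8 one, and Ebp was 1.61-fold higher in iRTE than in Artificial CD8 (log2 fold change 0.69 ± 0.13, edgeR adjusted p = 0.000464). Against CD4+CD8+ the ranges overlapped (log2 fold change 0.46 ± 0.22, edgeR adjusted p = 0.0364), and that call was lost in 9 other settings, with an adjusted p of up to 0.313 there.

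Nsdhl, a sterol dehydrogenase that removes methyl groups, had the narrowest spread of the sterol enzymes across iRTE, at 27.5 to 35.2 CPM, against 37.3 to 45.1 CPM in Artificial CD8, 42.6 to 45.7 CPM in CD4+CD8+ and 15.3 to 20.8 CPM in splenic CD8. The iRTE range lay between those of the other cultured groups and that of splenic cells with no overlap, and Nsdhl was lower in iRTE than in CD4+CD8+ (log2 fold change -0.47 ± 0.06, edgeR adjusted p = 0.00946), a call lost with only both groups in the fit (adjusted p = 0.115). Hsd17b7, a keto reductase that acts beside it, ran at 4.73 to 15.3 CPM in iRTE, 13.8 to 24.1 in Artificial CD8, 12.8 to 14.1 in CD4+CD8+ and 5.77 to 10.1 in splenic CD8. Against splenic CD8 Hsd17b7 did not pass in iRTE (0.49 ± 0.35, edgeR adjusted p = 0.13), and without iRTE 4 its log2 fold change was 0.69 (edgeR adjusted p = 0.014).

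Tm7sf2, a sterol reductase that follows Cyp51, was, with Ggps1, lower in Artificial CD8 than in splenic CD8 where 15 of the other sterol enzymes were higher. It had 6.22, 8.34, 7.43, 0.809 and 14.3 CPM in iRTE 1 to 5 and 3.98, 4.38, 4.20, 4.52 and 4.07 CPM in Artificial CD8. In CD4+CD8+ it had 3.20, 2.01 and 1.38 CPM, and in splenic CD8 11.7, 9.83, 9.70, 13.8 and 10.6 CPM. Artificial CD8 and CD4+CD8+ lay wholly below splenic CD8, whereas iRTE 5 was the highest of all libraries and iRTE 4 the lowest. Tm7sf2 was 2.63-fold lower in Artificial CD8 than in splenic CD8 (log2 fold change -1.39 ± 0.10, edgeR adjusted p = 0.0089) and 5.06-fold lower in CD4+CD8+ (log2 fold change -2.34 ± 0.34, edgeR adjusted p = 0.00146). In iRTE against splenic CD8 its log2 fold change was -0.59 ± 0.68 (edgeR adjusted p = 0.244), and without iRTE 5 it passed as lower (-0.97, adjusted p = 0.0479). Against Artificial CD8 it was 0.81 ± 0.67 (edgeR adjusted p = 0.144), and 1.10 (edgeR adjusted p = 0.00208) without iRTE 4. It shares 12.1% of its exonic length with Vps51 on the same strand, which averaged 71.4 ± 14.2 CPM in iRTE, 59.5 ± 1.77 in Artificial CD8, 59.8 ± 8.47 in CD4+CD8+ and 77.9 ± 3.76 in splenic CD8.

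**Figure D3:**
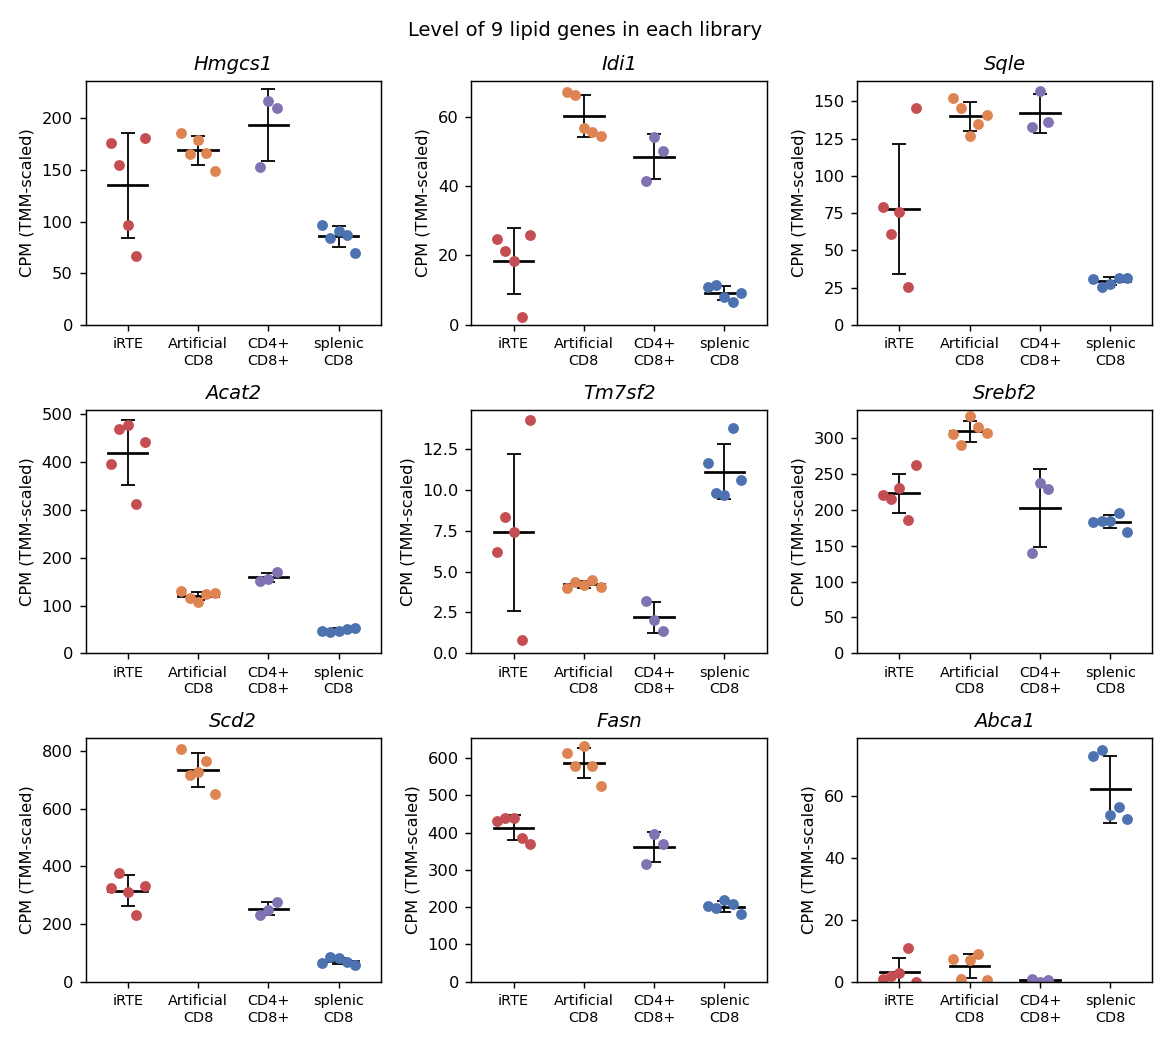
TMM-scaled CPM (y axis) of 9 genes in each of the 18 libraries, by group (x axis: iRTE, Artificial CD8, CD4+CD8+, splenic CD8); points are libraries, the long line is the mean and the whisker the SD. Idi1, Sqle and Scd2 are high in all 5 Artificial CD8 libraries, Acat2 is high in iRTE, and Abca1 is high in splenic CD8 alone.

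Of the 5 control and transfer genes, 2 were higher in iRTE than in splenic CD8 (Scap and Stard4) and none lower, 4 were higher in Artificial CD8, and 1 was higher and 1 lower in CD4+CD8+, where 27.4% to 30.3% of all genes were called in each direction. Srebf2, which encodes the SREBP that favours sterol genes, had 220.3, 215, 230.3, 186 and 262 CPM in iRTE 1 to 5 and 306, 290.4, 330.1, 315 and 307 CPM in Artificial CD8. The CD4+CD8+ libraries had 139, 238 and 229 CPM and the splenic CD8 libraries 182, 185, 184, 195 and 169 CPM. All Artificial CD8 libraries lay above every other library, and CD4+CD8+ 1 was the lowest of all. Srebf2 was 1.69-fold higher in Artificial CD8 than in splenic CD8 (log2 fold change 0.76 ± 0.04, edgeR adjusted p = 2.84e-05), higher than in CD4+CD8+ (log2 fold change 0.62 ± 0.25, edgeR adjusted p = 0.00721), and lower in iRTE than in Artificial CD8 (log2 fold change -0.48 ± 0.08, edgeR adjusted p = 0.00438). Its log2 fold change was 0.28 ± 0.09 in iRTE against splenic CD8 (edgeR adjusted p = 0.0531), 0.14 ± 0.25 in CD4+CD8+ against splenic CD8 (edgeR adjusted p = 0.395) and 0.14 ± 0.26 in iRTE against CD4+CD8+ (edgeR adjusted p = 0.514). Without iRTE 4 the first of these passed (log2 fold change 0.34, edgeR adjusted p = 0.019), and without CD4+CD8+ 1 so did the second (0.35, adjusted p = 0.0126).

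Srebf1, which encodes the SREBP that favours fatty acid genes, had 142, 123, 139, 153 and 177 CPM in iRTE 1 to 5 and 154, 133, 139.8, 157 and 144 CPM in Artificial CD8. CD4+CD8+ libraries stood at 116, 109 and 108 CPM and splenic CD8 libraries at 144, 124, 137, 143 and 146 CPM. CD4+CD8+ lay below every library of the other groups, which overlapped one another. Srebf1 was higher than in CD4+CD8+ in iRTE (log2 fold change 0.40 ± 0.09, edgeR adjusted p = 0.0114) and in Artificial CD8 (log2 fold change 0.39 ± 0.05, edgeR adjusted p = 0.0227), and lower in CD4+CD8+ than in splenic CD8 (log2 fold change -0.32 ± 0.05, edgeR adjusted p = 0.018). These calls were lost in 3, 5 and 6 other settings. Between iRTE and Artificial CD8 its log2 fold change was 0.01 ± 0.10 (edgeR adjusted p = 0.927), between iRTE and splenic CD8 0.08 ± 0.10 (edgeR adjusted p = 0.478) and between Artificial CD8 and splenic CD8 0.07 ± 0.06 (edgeR adjusted p = 0.553).

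Insig1, the retention protein that is itself an SREBP target, had 29.7, 21.2, 10.6, 19.7 and 39.6 CPM in iRTE 1 to 5 and 49.4, 43.7, 51.7, 46.3 and 53.3 CPM in Artificial CD8. It was 32.3, 28.2 and 35.4 CPM in CD4+CD8+ and 27.5, 25.9, 29.2, 26.2 and 25.5 CPM in splenic CD8. Every Artificial CD8 library lay above all others, and iRTE spanned the splenic range on both sides. Insig1 was 2.02-fold lower in iRTE than in Artificial CD8 (log2 fold change -1.01 ± 0.32, edgeR adjusted p = 0.00142), and 1.82-fold higher in Artificial CD8 than in splenic CD8 (log2 fold change 0.86 ± 0.06, edgeR adjusted p = 0.00251). Its log2 fold change was -0.15 ± 0.32 in iRTE against splenic CD8 (edgeR adjusted p = 0.584), 0.25 ± 0.10 in CD4+CD8+ against splenic CD8 (edgeR adjusted p = 0.411), -0.40 ± 0.33 in iRTE against CD4+CD8+ (edgeR adjusted p = 0.281) and 0.61 ± 0.11 in Artificial CD8 against CD4+CD8+ (edgeR adjusted p = 0.126). Without iRTE 5 the iRTE difference from CD4+CD8+ passed (log2 fold change -0.66, edgeR adjusted p = 0.0282). With only both groups in the fit, so did the difference of Artificial CD8 from CD4+CD8+ (log2 fold change 0.61, edgeR adjusted p = 0.00376).

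Scap, the SREBP escort, averaged 137 ± 19.3 CPM in iRTE, 119 ± 16.0 in Artificial CD8, 85.8 ± 16.2 in CD4+CD8+ and 97.0 ± 6.67 in splenic CD8, and iRTE 4 was its highest library at 167 CPM. Scap was higher in iRTE than in CD4+CD8+ with no overlap (log2 fold change 0.67 ± 0.19, edgeR adjusted p = 0.00227), a call lost with only both groups in the fit (adjusted p = 0.0537). The call of Scap as higher in Artificial CD8 than in splenic CD8 was lost in several other settings. Among them was the fit without Artificial CD8 3 (log2 fold change 0.26, edgeR adjusted p = 0.0899). Stard4, a sterol carrier between membranes, had 58.4, 41.6, 54.9, 21.4 and 81.8 CPM in iRTE 1 to 5 and 40.8 to 55.0 CPM in Artificial CD8. Levels were 29.5 to 42.1 CPM in CD4+CD8+ and 14.4 to 21.5 CPM in splenic CD8. iRTE 5 was the highest of all libraries and iRTE 4 fell within the splenic range. Against CD4+CD8+ Stard4 did not pass in iRTE (log2 fold change 0.58 ± 0.36, edgeR adjusted p = 0.154), and without iRTE 4 it was 0.78 (edgeR adjusted p = 0.00798).

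All 6 fatty acid genes were higher than in splenic CD8 in iRTE and in Artificial CD8, and 4 of 6 were in CD4+CD8+. Of all genes tested, 29.2%, 30.3% and 28.9% were called higher in these 3 comparisons. Their median log2 fold change over splenic CD8 was 1.16 in iRTE, 1.33 in Artificial CD8 and 0.83 in CD4+CD8+, against -0.05, -0.03 and -0.03 for all genes tested. Fasn, fatty acid synthase, had 431, 439.6, 440.4, 385 and 369.6 CPM in iRTE 1 to 5 and 614, 579, 631, 579 and 526 CPM in Artificial CD8. In CD4+CD8+ it had 316, 397 and 369.9 CPM, and in splenic CD8 203, 197, 219, 209 and 181 CPM. Artificial CD8 lay above all other groups and splenic CD8 below, and iRTE overlapped with CD4+CD8+. Fasn was 2.05-fold higher in iRTE than in splenic CD8 (log2 fold change 1.03 ± 0.07, edgeR adjusted p = 2.36e-08), 2.90-fold in Artificial CD8 (log2 fold change 1.54 ± 0.06, edgeR adjusted p = 7.98e-11) and 1.79-fold in CD4+CD8+ (log2 fold change 0.84 ± 0.11, edgeR adjusted p = 1.37e-06). It was lower in iRTE than in Artificial CD8 (log2 fold change -0.50 ± 0.07, edgeR adjusted p = 0.000187) and higher in Artificial CD8 than in CD4+CD8+ (log2 fold change 0.70 ± 0.11, edgeR adjusted p = 0.000269). In iRTE against CD4+CD8+ its log2 fold change was 0.19 ± 0.11 (edgeR adjusted p = 0.19).

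Scd2, the desaturase that makes oleate and palmitoleate in many tissues outside liver, had 326, 377, 311, 231 and 334 CPM in iRTE 1 to 5 and 808, 716, 727, 766 and 652 CPM in Artificial CD8. The CD4+CD8+ libraries had 232, 250.2 and 277 CPM and the splenic CD8 libraries 65.9, 85.2, 82.6, 68.0 and 57.1 CPM. The lowest Artificial CD8 library stood above every iRTE and CD4+CD8+ library, and every splenic library stood below them. Scd2 was 10.2-fold higher in Artificial CD8 than in splenic CD8 (log2 fold change 3.35 ± 0.12, edgeR adjusted p = 7.12e-13), 4.40-fold higher in iRTE (log2 fold change 2.14 ± 0.16, edgeR adjusted p = 2.49e-10) and 3.53-fold higher in CD4+CD8+ (log2 fold change 1.82 ± 0.13, edgeR adjusted p = 7.41e-09). It was 2.32-fold lower in iRTE than in Artificial CD8 (log2 fold change -1.22 ± 0.13, edgeR adjusted p = 6.14e-07) and higher in Artificial CD8 than in CD4+CD8+ (log2 fold change 1.54 ± 0.09, edgeR adjusted p = 5.05e-06). In iRTE against CD4+CD8+ its log2 fold change was 0.32 ± 0.14 (edgeR adjusted p = 0.127), and without iRTE 4 it was 0.41 (edgeR adjusted p = 0.0191). Per kilobase of exon it ranked first of the 32 genes in Artificial CD8, at 134 CPM per kb, and ranked lower in iRTE, at 57.8 CPM per kb.

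Scd1, its paralog, stood at 1.44 CPM per kb in iRTE, 1.86 in Artificial CD8, 0.184 in CD4+CD8+ and 0.104 in splenic CD8. Its libraries had 2.11, 5.50, 9.73, 7.04 and 10.9 CPM in iRTE 1 to 5 and 9.92, 11.0, 5.03, 9.14 and 10.4 CPM in Artificial CD8. CD4+CD8+ libraries stood at 1.21, 1.17 and 0.324 CPM and splenic CD8 libraries at 0.378, 0.919, 0.562, 0.181 and 0.509 CPM. iRTE and Artificial CD8 lay above both other groups, which overlapped. In splenic CD8 a level of 3 counts corresponds to 0.162 to 0.255 CPM, so the Scd1 folds over that group rest on few reads. Scd1 was 13.9-fold higher in iRTE than in splenic CD8 (log2 fold change 3.79 ± 0.50, edgeR adjusted p = 2.98e-06) and 17.8-fold in Artificial CD8 (log2 fold change 4.15 ± 0.35, edgeR adjusted p = 7.16e-07). It was also higher than in CD4+CD8+ in iRTE (log2 fold change 2.97 ± 0.65, edgeR adjusted p = 0.000887) and in Artificial CD8 (log2 fold change 3.33 ± 0.55, edgeR adjusted p = 0.000915). Its log2 fold change was -0.36 ± 0.46 in iRTE against Artificial CD8 (edgeR adjusted p = 0.517) and 0.83 ± 0.58 in CD4+CD8+ against splenic CD8 (edgeR adjusted p = 0.222). Scd1 and Scd2 are close paralogs, so reads of the abundant gene could be counted for the scarce one.

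Acly, which splits citrate to cytosolic acetyl-CoA, was the highest of the 32 genes per kilobase in splenic CD8, at 57.2 CPM per kb, and in CD4+CD8+, at 82.5 CPM per kb. In CPM it averaged 416 ± 55.5 in iRTE, 456 ± 25.5 in Artificial CD8, 435 ± 56.8 in CD4+CD8+ and 302 ± 14.9 in splenic CD8, and iRTE 4 had the highest iRTE value at 484 CPM. Acaca, acetyl-CoA carboxylase, averaged 39.1 ± 7.90 CPM in iRTE, 53.3 ± 8.88 in Artificial CD8, 35.4 ± 6.41 in CD4+CD8+ and 27.1 ± 4.42 in splenic CD8. Elovl6, which lengthens palmitate, averaged 46.9 ± 13.8 CPM in iRTE, 41.7 ± 6.51 in Artificial CD8, 52.9 ± 10.05 in CD4+CD8+ and 19.2 ± 2.84 in splenic CD8, the only fatty acid gene with its highest mean in CD4+CD8+.

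Of the 3 efflux and LXR genes, Abcg1 was higher and Abca1 lower in iRTE than in splenic CD8, Abca1 and Nr1h2 were lower in Artificial CD8, and Abca1 and Abcg1 were lower in CD4+CD8+. Abca1, the pump that loads cholesterol onto lipid-poor apolipoprotein and an LXR target, had 0.958, 1.77, 2.83, 10.8 and 0 CPM in iRTE 1 to 5 and 7.35, 0.863, 7.10, 8.98 and 0.670 CPM in Artificial CD8. It was 0.778, 0 and 0.567 CPM in CD4+CD8+ and 72.7, 74.8, 53.8, 56.4 and 52.5 CPM in splenic CD8. Every splenic library lay above every cultured one, and the libraries differed widely within iRTE and Artificial CD8. Abca1 was 18.4-fold lower in iRTE than in splenic CD8 (log2 fold change -4.20 ± 1.04, edgeR adjusted p = 0.000239), 12.4-fold lower in Artificial CD8 (log2 fold change -3.63 ± 0.78, edgeR adjusted p = 0.000565) and 136-fold lower in CD4+CD8+ (log2 fold change -7.09 ± 0.87, edgeR adjusted p = 0.000127), the last from 9, 0 and 7 counts in the CD4+CD8+ libraries. Its log2 fold change was -0.57 ± 1.29 in iRTE against Artificial CD8 (edgeR adjusted p = 0.591) and -1.90 (edgeR adjusted p = 0.0471) without iRTE 4. Against splenic CD8 it was -5.53 (edgeR adjusted p = 7.72e-06) without iRTE 4. In CD4+CD8+ against splenic CD8 it was -7.71 without CD4+CD8+ 1 and -6.51 without CD4+CD8+ 2, both past the threshold (edgeR adjusted p = 0.00103 and 0.00137). The log2 fold change was 2.89 ± 1.35 in iRTE against CD4+CD8+ (edgeR adjusted p = 0.0957), which passed without iRTE 5 (3.23, adjusted p = 0.0298), and 3.46 ± 1.16 in Artificial CD8 against CD4+CD8+ (edgeR adjusted p = 0.0606), which passed in 5 other settings, DESeq2 among them (3.50, adjusted p = 0.0252).

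Abcg1, the pump that serves high-density lipoprotein, had 94.1, 103, 109, 170.5 and 65.0 CPM in iRTE 1 to 5 and 67.5, 69.3, 81.4, 80.1 and 56.5 CPM in Artificial CD8. Levels were 50.03, 38.8 and 36.5 CPM in CD4+CD8+ and 65.1, 71.4, 62.7, 63.4 and 62.0 CPM in splenic CD8. CD4+CD8+ lay below all other libraries, and iRTE 4 above all others. Abcg1 was higher in iRTE than in Artificial CD8 (log2 fold change 0.61 ± 0.24, edgeR adjusted p = 0.0124), CD4+CD8+ (log2 fold change 1.37 ± 0.26, edgeR adjusted p = 0.000174) and splenic CD8 (log2 fold change 0.74 ± 0.23, edgeR adjusted p = 0.00201). It was also higher in Artificial CD8 than in CD4+CD8+ (log2 fold change 0.76 ± 0.17, edgeR adjusted p = 0.0237, a call lost without CD4+CD8+ 2 or 3, at adjusted p of 0.0889 and 0.102) and lower in CD4+CD8+ than in splenic CD8 (log2 fold change -0.64 ± 0.14, edgeR adjusted p = 0.0181), while Artificial CD8 against splenic CD8 gave a log2 fold change of 0.13 ± 0.10 (edgeR adjusted p = 0.558). With only both groups in the fit the iRTE difference from Artificial CD8 lost its call (log2 fold change 0.61, edgeR adjusted p = 0.0526), and the CD4+CD8+ difference from splenic CD8 was lost without CD4+CD8+ 2 (adjusted p = 0.0703) or 3 (0.0863). Nr1h2, the LXR form found in most cells, had 113, 114, 135, 128 and 130.2 CPM in iRTE and 76.9, 84.4, 79.7, 92.2 and 81.2 CPM in Artificial CD8. In CD4+CD8+ it had 113, 88.7 and 88.5 CPM, and in splenic CD8 103, 97.1, 106, 126 and 128 CPM. Artificial CD8 lay below iRTE and splenic CD8 throughout, and Nr1h2 was higher in iRTE than in Artificial CD8 (log2 fold change 0.58 ± 0.07, edgeR adjusted p = 0.000199) and lower in Artificial CD8 than in splenic CD8 (log2 fold change -0.43 ± 0.09, edgeR adjusted p = 0.00133).

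Other synthesis genes of the same routes, 19 of 21 listed being tested, were counted the same way. In iRTE against splenic CD8 10 were higher and 4 lower, in Artificial CD8 10 and 4, and in CD4+CD8+ 9 and 4. In iRTE against Artificial CD8 3 were higher and 4 lower, in iRTE against CD4+CD8+ 4 and 3, and in Artificial CD8 against CD4+CD8+ 4 and 2. Of all genes tested, 29.2% were called higher and 29% lower in iRTE against splenic CD8, 30.3% and 30.2% in Artificial CD8, and 28.9% and 27.4% in CD4+CD8+. Between cultured groups the shares were those given for the prenyl genes. Msmo1, the sterol methyl oxidase that works with Nsdhl, had 84.1, 81.9, 66.7, 63.0 and 73.7 CPM in iRTE 1 to 5 and 203, 191, 165, 168 and 177 CPM in Artificial CD8. The CD4+CD8+ libraries had 183, 134 and 144 CPM and the splenic CD8 libraries 39.3, 49.9, 41.8, 37.9 and 47.4 CPM. All iRTE libraries lay below all of the other cultured groups and above all splenic ones. Msmo1 was lower in iRTE than in Artificial CD8 (log2 fold change -1.29 ± 0.10, edgeR adjusted p = 9.83e-08) and than in CD4+CD8+ (log2 fold change -1.06 ± 0.16, edgeR adjusted p = 9.12e-06), and higher in Artificial CD8 than in splenic CD8 (log2 fold change 2.06 ± 0.09, edgeR adjusted p = 5.71e-11). Fads2, the first desaturase of polyunsaturated fatty acids, had 11.2 to 80.7 CPM in iRTE, 45.4 to 65.0 CPM in Artificial CD8, 9.85 to 26.9 CPM in CD4+CD8+ and 0 to 0.141 CPM in splenic CD8, the last below the level of 3 counts.

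Acss2, which makes acetyl-CoA from acetate, was lower than in splenic CD8 in each cultured group. It had 106, 105, 114, 92.9 and 71.8 CPM in iRTE 1 to 5 and 48.3, 48.6, 49.9, 50.6 and 37.8 CPM in Artificial CD8. CD4+CD8+ libraries stood at 99.5, 91.2 and 78.4 CPM and splenic CD8 libraries at 172, 172, 159.6, 161 and 189.6 CPM. Every splenic library lay above every cultured one, and Artificial CD8 below every other library. Acss2 was lower than in splenic CD8 in iRTE (log2 fold change -0.80 ± 0.13, edgeR adjusted p = 1.57e-05), in Artificial CD8 (log2 fold change -1.86 ± 0.09, edgeR adjusted p = 3.49e-10) and in CD4+CD8+ (log2 fold change -0.93 ± 0.11, edgeR adjusted p = 2.31e-05), and it was higher in iRTE than in Artificial CD8 (log2 fold change 1.06 ± 0.14, edgeR adjusted p = 1.75e-06). Slc25a1, the mitochondrial citrate carrier that feeds Acly, averaged 70.6 ± 24.4 CPM in iRTE, 46.6 ± 3.96 in Artificial CD8, 42.0 ± 5.74 in CD4+CD8+ and 21.9 ± 2.64 in splenic CD8, and was higher in iRTE than in splenic CD8 (log2 fold change 1.69 ± 0.25, edgeR adjusted p = 6.10e-07).

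Among 11 tested genes of sterol storage, efflux and LXR response, 5 were higher and 1 lower in iRTE than in splenic CD8, 7 higher and 3 lower in Artificial CD8, and 4 higher and 2 lower in CD4+CD8+. In iRTE against Artificial CD8 3 were higher and 3 lower, in iRTE against CD4+CD8+ 3 and 1, and in Artificial CD8 against CD4+CD8+ 3 and 2. The 3 splenic comparisons called 27.4% to 30.3% of all genes in each direction, and the comparisons between cultured groups the shares given for the prenyl genes. Soat1, which esterifies cholesterol for storage, had 231, 164, 180.5, 189 and 169 CPM in iRTE 1 to 5 and 97.4, 95.0, 117, 98.1 and 119 CPM in Artificial CD8. It was 69.8, 65.9 and 65.4 CPM in CD4+CD8+ and 49.9, 60.4, 59.8, 52.8 and 53.6 CPM in splenic CD8. The groups did not overlap and fell in the order iRTE, Artificial CD8, CD4+CD8+ and splenic CD8. Soat1 was 1.77-fold higher in iRTE than in Artificial CD8 (log2 fold change 0.83 ± 0.11, edgeR adjusted p = 5.61e-06) and 3.38-fold higher than in splenic CD8 (log2 fold change 1.76 ± 0.10, edgeR adjusted p = 2.17e-10). Its paralog Soat2 averaged 7.86 ± 3.93 CPM in iRTE, 8.99 ± 2.54 in Artificial CD8, 7.23 ± 2.39 in CD4+CD8+ and 0.366 ± 0.305 in splenic CD8. Smpdl3a, an LXR target in human macrophages, had 2.20, 5.50, 0.531, 1.06 and 0.767 CPM in iRTE 1 to 5 and 20.6, 28.04, 25.9, 16.5 and 25.3 CPM in Artificial CD8. It had no count in the 3 CD4+CD8+ libraries and 109, 109.8, 109, 99.2 and 117 CPM in splenic CD8. The order of its group means was that of Abca1 but not that of the other pump, Abcg1, which had its highest mean in iRTE. Lipa, the lysosomal esterase that frees cholesterol, averaged 152 ± 11.0 CPM in iRTE, 185 ± 7.83 in Artificial CD8, 317 ± 9.84 in CD4+CD8+ and 145 ± 7.05 in splenic CD8, and was higher in CD4+CD8+ than in splenic CD8 (log2 fold change 1.14 ± 0.04, edgeR adjusted p = 3.27e-09).

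Within iRTE, library 4 was low for the sterol enzymes as a set and not for the fatty acid genes. The mean log2 CPM of the 18 sterol enzymes was 5.83, 5.77, 5.76, 4.59 and 6.12 in iRTE 1 to 5, 5.89 to 6.10 in Artificial CD8, 5.80 to 5.90 in CD4+CD8+ and 4.70 to 4.78 in splenic CD8. Its SD across libraries was 0.588 in iRTE, 0.0872 in Artificial CD8, 0.056 in CD4+CD8+ and 0.0329 in splenic CD8. On this mean of logs iRTE 4 lay below the splenic range. The summed CPM of the same enzymes, in which abundant genes such as Acat2 weigh most, was 1648, 1607, 1629.7, 909.6 and 1963 in iRTE 1 to 5, 1531 to 1798 in Artificial CD8, 1487 to 1572 in CD4+CD8+ and 612 to 649 in splenic CD8, so by the sum iRTE 4 lay between the splenic and the other cultured libraries. It was the lowest iRTE library for 14 of the 18 enzymes, while iRTE 5 was the highest for 11. The mean of the 6 fatty acid genes was 6.21, 6.65, 6.63, 6.41 and 6.67 in iRTE 1 to 5, 6.88 to 7.12 in Artificial CD8, 5.91 to 6.15 in CD4+CD8+ and 4.84 to 5.24 in splenic CD8, so iRTE 4 stayed within the iRTE range. By summed CPM it was the lowest of iRTE by little, at 1178 against 1194 to 1357 in iRTE 1, 2, 3 and 5. The 8 proliferation markers were likewise lowest in iRTE 4 within iRTE, with a mean log2 CPM of 7.07, 6.98, 6.99, 5.08 and 7.25 in iRTE 1 to 5. They stood at 7.90 to 8.25 in Artificial CD8, 8.12 to 8.21 in CD4+CD8+ and 4.82 to 5.17 in splenic CD8. On these markers every iRTE library lay below the other cultured groups, whereas on the sterol mean iRTE 5 was the highest of all libraries. The part of proliferation in the sterol result was not tested.

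**Figure D4:**
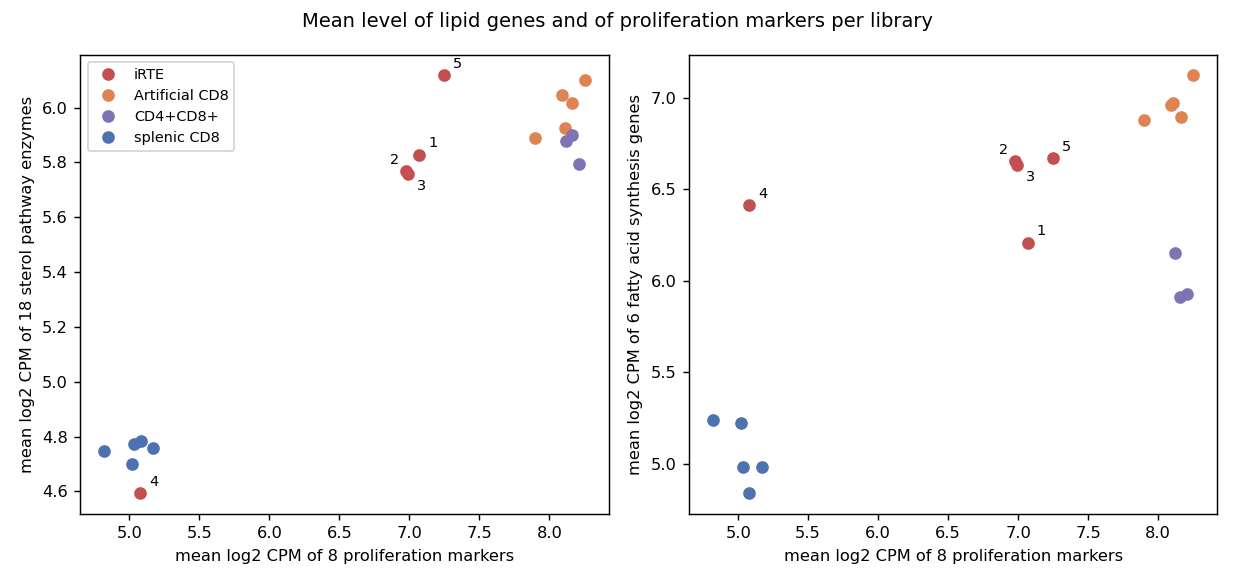
Mean log2 CPM of the 18 sterol enzymes (left) and of the 6 fatty acid genes (right) against the mean log2 CPM of 8 proliferation markers, with 1 point per library and the iRTE libraries numbered. On the left iRTE 4 lies beside the 5 splenic CD8 libraries, at 4.59; on the right it stays with the other iRTE libraries, at 6.41.

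With all 5 iRTE libraries 15 of 18 sterol enzymes were higher than in splenic CD8, where 29.2% of all genes were. Leaving out 1 iRTE library gave 13 (without iRTE 5) to 16 (without iRTE 4), and limma-voom with all 5 gave 12. With iRTE 1, 2 and 3 alone 16 were higher, and with iRTE 4 and 5 alone 9 were. Sample descriptions name iRTE 1 to 3 and CD4+CD8+ in one style and the other libraries in another, with no word on what the styles stand for. Over all 32 genes, iRTE 1, 2 and 3 alone gave 25 higher and 3 lower than splenic CD8 and 5 higher and 13 lower than Artificial CD8. iRTE 4 and 5, which share the style of those groups, gave 18 and 2 against splenic CD8 and 4 and 10 against Artificial CD8. iRTE 1, 2 and 3, which share the style of CD4+CD8+, gave 10 higher and 5 lower against it. The share of all genes called was not counted for these subsets, which hold fewer libraries than the full group. For most of the 18 sterol enzymes iRTE 4 was the lowest iRTE library and iRTE 5 the highest. Whether the naming style bears on these counts was not tested. For CD4+CD8+ against splenic CD8 and for Artificial CD8 against CD4+CD8+ the naming style and the group cannot be told apart.

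Marker genes of other cell types differed between groups beside these results. The B-cell receptor subunit gene Cd79b ran from 2.68 to 6.20 CPM in iRTE, 2.28 to 6.74 CPM in Artificial CD8, 4.37 to 5.70 CPM in CD4+CD8+ and 24.5 to 31.5 CPM in splenic CD8. The B-cell genes Ms4a1 and Pax5 were at 0 in all cultured libraries, and Ms4a1 was 1.73 to 4.24 CPM in splenic CD8. The globin gene Hba-a1 was at most 0.436 CPM in iRTE, 0.206 CPM in Artificial CD8 and 0.167 CPM in CD4+CD8+, and 60.4 to 80.5 CPM in splenic CD8. Stromal markers (Col1a1, Col1a2, Col3a1, Pdgfrb, Sparc) summed to 0.973 to 4.31 CPM in iRTE, 17.3 to 26.3 CPM in Artificial CD8, 1.38 to 41.0 CPM in CD4+CD8+ and 2.17 to 3.62 CPM in splenic CD8. In Artificial CD8 most of that sum was Pdgfrb, at 14.4 to 23.4 CPM, and Col1a1 was at 0 in all iRTE libraries. Myeloid markers (Lyz2, Csf1r, Itgam, Cd14, Emr1) summed to at most 6.72 CPM in iRTE, 5.74 CPM in Artificial CD8 and 4.77 CPM in CD4+CD8+, and to 3.61 to 13.4 CPM in splenic CD8. Whether the RNA of these markers came from other cells or from the sorted cells was not tested, nor was its part in the differences above.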

How the data were processed

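RNA-seq libraries (n = 18) were aligned with STAR 2.4.2 to mm9 and counted with Subread, per the submitters' processing notes; count file headers speak of sorted alignments in which duplicates were marked. Which annotation release and strand option were used is not given in the sources used here. The deposited counts are whole reads per gene symbol. The authors also deposited a log2 table of 17765 genes, which equals log2 CPM with TMM scaling and a prior count of 2 (largest difference 5.33e-14) and served for that check alone.

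From the counts, edgeR 4.0.16 (R 4.3.3) kept 13922 genes with filterByExpr, scaled them by TMM and fitted all 18 libraries in 1 quasi-likelihood model with 1 coefficient per group. P-values were adjusted over all genes tested by Benjamini-Hochberg, with a threshold of 0.05. CPM are TMM-scaled; each SE comes from within-group variances of log2 CPM (prior count 2) and not from the fit. A level of 3 counts was taken as the limit that a count of 0 allows, for counting error only. The test was checked on simulated data. Within each group the libraries differed by more than sampling noise (lowest chi-square per degree of freedom 4.67), so none was merged.

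Levels per kilobase, exon overlaps (GENCODE M21) and RefSeq promoter windows use GRCm38, while the counts use mm9, so lengths are approximate and no coordinates were converted. Alternatives were DESeq2 1.42.0, limma-voom (limma 3.58.1), DESeq2-type scaling, no filter, only the 2 groups compared in the fit, a replicate block, each library left out in turn, and iRTE libraries split by naming style.

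The 32 genes and all lists were chosen with earlier results of these data known. Every gene of the 32 is described. In each comparison folds and p-values are given for Hmgcs1, Sqle, Srebf1, Srebf2, Insig1, Fasn, Scd1, Scd2, Abca1 and Abcg1, and for up to 4 called genes with the largest rise and up to 4 with the largest fall (where the higher group averaged 10 CPM or more); from other lists, counts and called genes with the smallest adjusted p. Sums over the B-cell and erythroid marker lists are not reported here.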

Additional observations from a re-analysis of the deposited data

Results flagged for a closer look

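Of 96 combinations of a gene and a group, 6 had a library set apart from the rest of its group by Dixon's criterion, which chance meets in about 1 in 20 groups. Lss was 37.4 CPM in iRTE 4, where the next iRTE library had 67.9 CPM and the highest 80.1 CPM, and Abca1 was 10.8 CPM in iRTE 4, where the next had 2.83 CPM and the lowest 0. Mvd was 112 CPM in iRTE 5, where the next had 75.1 CPM and the lowest 61.9 CPM. Ggps1 was 38.6 CPM in Artificial CD8 5, where the next library had 56.7 CPM and the highest 61.9 CPM. Lss was 60.8 CPM in Artificial CD8 3, where the next had 85.0 CPM and the highest 91.7 CPM. Fdft1 was 25.5 CPM in splenic CD8 5, where the next had 20.4 CPM and the lowest 19.4 CPM.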

How the results depend on the processing

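Over 192 pairs of a gene and a comparison, 3072 values came from alternative settings. None reversed a call, 39 changed sign with neither value past the threshold, 136 lost a call and 52 gained one, and 85 of 116 calls passed in every setting run. With each library left out in turn, the number of genes higher and lower was 4 to 5 and 11 to 14 in iRTE against Artificial CD8, 22 to 26 and 2 to 3 in iRTE against splenic CD8, 24 to 25 and 3 to 4 in Artificial CD8 against splenic CD8, and 19 to 21 and 2 to 5 in CD4+CD8+ against splenic CD8. The same ranges were 4 to 10 and 1 to 6 in iRTE against CD4+CD8+, and 5 to 8 and 0 to 1 in Artificial CD8 against CD4+CD8+. Without CD4+CD8+ 2 or 3, 2 genes were lower in CD4+CD8+ than in splenic CD8, 5 or 4 were higher in iRTE than in CD4+CD8+, and 5 were higher in Artificial CD8 than in CD4+CD8+, as also without Artificial CD8 1. Without CD4+CD8+ 2, 1 gene was lower in iRTE than in CD4+CD8+, and without iRTE 5, 6 were. With only the 2 groups compared in the fit, 3 were higher and 0 lower in iRTE against CD4+CD8+, and 15 were higher in Artificial CD8 against CD4+CD8+. With iRTE 1, 2 and 3 alone, 5 were lower than in CD4+CD8+. Without the filter on low counts, 0 were lower in Artificial CD8 than in CD4+CD8+. The causes were not tested, and the share of all genes called was not counted for the alternative settings. DESeq2-type scaling moved no gene of the 32 by more than 0.0288 on the log2 scale.

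Replicate numbers did not pair the samples: same-numbered libraries correlated at -0.0663 to 0.0587. With the replicate number as a block, 3 genes were higher in iRTE than in CD4+CD8+ and 0 lower in Artificial CD8 than in CD4+CD8+, and the other counts of calls stayed within 1.5 times. Genes near 3 counts per library, such as Abca1 and Scd1 in CD4+CD8+ and Scd1 in splenic CD8, carry the least precise folds.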
